A study of Mus musculus with 4 samples.

Results

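Described here are 9 long noncoding RNAs, measured in mouse marrow cells transduced with MLL-AF9, with and without Elovl6, an enzyme that lengthens fatty acids. They are the nuclear body RNAs Malat1 and Neat1, the snoRNA host genes Gas5, Snhg1, Snhg5, Snhg8 and Snhg12, and 2 transcripts known only by database names, Gm26917 and AI506816. They were taken by name from a table of 51826 features and had been chosen by their measured levels and changes in these same 4 libraries, as abundant noncoding genes. Their levels are therefore a description, and the test results below, adjusted over all genes tested, are no independent support for the choice.

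The cells were Lin-, c-kit positive bone marrow cells transduced with MLL-AF9, a fusion oncoprotein of acute myeloid leukaemia, and were labelled week 2. There were 2 Elovl6 knockout (KO) and 2 wild-type (WT) samples, all with MLL-AF9, and the labels used here give neither the age and strain of the animals nor the kind of KO allele. Libraries of total RNA held 8986502 and 9699502 gene counts in KO, against 9883596 and 11941588 in WT. Elovl6 itself had 17 and 34 counts in KO, against 1290 and 1673 in WT. RNA of Kit, which encodes the c-kit protein used to select the cells, stood at 139 and 111 CPM (counts relative to library size) in KO and 139.9 and 131 CPM in WT. The labels do not say whether the 2 replicates of a group are separate animals or cultures. If they are not, the p-values below reflect technical spread only.

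Malat1 is retained in nuclear speckles, the stores of splicing factors, and Neat1 is the scaffold of paraspeckles. Neat1 is made as a short and a long transcript that share their 5′ end, and the long one is needed to build the body. The snoRNA host genes carry small nucleolar RNAs in their introns. These guide chemical modification of ribosomal RNA, while the spliced host RNA is short-lived and is often removed by nonsense-mediated decay. Host genes commonly belong to the class of promoters whose transcripts start with a run of pyrimidines (the 5′ TOP class), as do genes of ribosomal proteins.

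Promoter sequence was held in the RefSeq table (GRCm38.p6) for 7 of the 9 genes. The 5 snoRNA hosts are shown because they share a feature that the choice of members did not use. Each line runs from 45 bases before the annotated start to 25 bases of transcript. Capitals mark TATA found between 40 and 11 bases before the start, and any run of C followed by at least 4 C or T that begins between 10 bases before and 15 after it. For Gas5 the second of its 2 annotated starts is shown, which is the one that held both motifs. The counts over hosts take Gas5 by this start only, while the shares count every promoter. Gas5 therefore counts for both motifs by the choice of start, and counts and shares are not alike. A run that begins anywhere in its window was counted, so it does not show that a transcript starts with pyrimidines.
Gas5 (chr1:161035121-161035190, plus strand): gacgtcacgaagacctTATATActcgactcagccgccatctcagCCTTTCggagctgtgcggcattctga
Snhg1 (chr19:8723442-8723511, plus strand): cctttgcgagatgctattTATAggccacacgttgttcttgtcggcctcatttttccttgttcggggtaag
Snhg5 (chr9:88522873-88522942, minus strand): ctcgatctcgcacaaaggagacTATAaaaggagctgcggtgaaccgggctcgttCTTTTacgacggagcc
Snhg8 (chr3:123508312-123508381, minus strand): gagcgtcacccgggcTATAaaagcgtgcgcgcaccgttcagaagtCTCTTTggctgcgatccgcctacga
Snhg12 (chr4:132308633-132308702, plus strand): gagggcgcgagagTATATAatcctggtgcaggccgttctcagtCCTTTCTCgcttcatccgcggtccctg
TATA, which reads the same on both strands, was present in all 5 of these windows, with overlapping copies in Gas5 and Snhg12, and in 6.52% of 32851 promoters. The pyrimidine run was present in 4 of the 5, all but Snhg1, against 30.7% of all promoters. Of all promoters 34.8% held the run on the opposite strand in the same window. The first annotated start of Gas5 and that of Malat1 held neither motif, and AI506816 held the run alone.

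The table's exon models decide what each readout of these genes covers. They mostly held spliced transcripts: 18706 features had an exon length of 0, and 99.8% of those found in GENCODE vM21 have no transcript of more than 1 exon there. In 2726 features a single-exon transcript reaches beyond the exons of the spliced ones. The table's exon length equalled that of the spliced transcripts alone in 2007 of these and that of all transcripts in 364. Where the single-exon form was left out, its further bases were booked as intron. Malat1 (chr19:5795690-5802672, minus strand) had 1834 exon bases in a locus of 6983. Neat1 (chr19:5824708-5845478, minus strand) had 3004 exon bases in a locus of 20771, which equals 2 of the 3 spliced models of GENCODE vM21 and the 2 transcripts that the table lists. Those 2 models lie within 3170 bases at the 5′ end, and all 3 together would cover 3715 bases. The intron reads of Neat1 thus cover 17767 bases, almost all of the long transcript downstream of the short one. Exon reads of Neat1 can come from either transcript.

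In most hosts the exons fill the locus. Exons of their isoforms cover 91.3% of the Gas5 locus (chr1:161034422-161038539), all of Snhg1 (chr19:8723475-8726443) and 92.0% of Snhg5 (chr9:88521050-88522929). The shares were 70.8% for Snhg8 (chr3:123507552-123508404) and 69.3% for Snhg12 (chr4:132308678-132311024). Snhg8 also has a single-exon form that spans its locus and was not in its exon length. The 5 hosts hold 26 snoRNA records at 24 places, since Snord80 in Gas5 and Snora16a in Snhg12 are each listed again. Of these places 23 lie wholly in bases that some spliced host isoform counts as exon, all but that of Snora24 in Snhg8. All 26 snoRNA features had 0 gene counts and 0 intron reads in all 4 libraries. None of the 1507 snoRNA features of the table had a gene count, and 44 had intron reads. The levels below are therefore those of the host loci, and mature snoRNAs were not measured apart from them. A snoRNA of each main class is shown, from GENCODE vM21. Capitals mark exact matches of the C and D boxes of Snord50a in Snhg5 and of the ACA box of Snora24 in Snhg8. Other conserved boxes of these RNAs are not marked.
Snord50a (chr9:88521529-88521600, minus strand): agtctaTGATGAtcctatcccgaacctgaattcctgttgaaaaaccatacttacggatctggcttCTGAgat
Snora24 (chr3:123507937-123508066, minus strand): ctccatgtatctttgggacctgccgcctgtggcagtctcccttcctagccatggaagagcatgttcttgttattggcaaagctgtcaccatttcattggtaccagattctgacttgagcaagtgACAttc

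Levels of the 9 transcripts spanned 3 orders of magnitude, and the label abundant fits only some of them. By mean CPM Gm26917 ranked first of all features, Malat1 ranked 83 and AI506816 ranked 123, while Gas5 ranked 1095 and Snhg8 ranked 7364. Among the 8612 features of long noncoding biotypes the same 5 ranked 1, 2, 3, 6 and 40. These ranks rest on gene counts, which were 0 for single-exon RNAs such as Rn7sk, with 40303 to 59156 intron reads per library. Such RNAs are missing from the upper ranks, and Malat1 ranks on the minor part of its reads that was booked as exon. Per length, in TPM (counts per kilobase of exon, scaled to a common sum) over the 4 libraries, Gm26917 held 74652 to 97536, Malat1 1428 to 1705, AI506816 375 to 927, Gas5 149.5 to 198, and Neat1 124 to 186. Snhg1 held 123 to 150.2 TPM, Snhg5 110.2 to 134, Snhg8 87.2 to 119.6 and Snhg12 40.2 to 50.5. The first 3 stood apart from each other and from the rest in every library. From Gas5 down to Snhg8 the ranges of neighbours overlapped, and Snhg12 lay below them all.

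**Figure D1:**
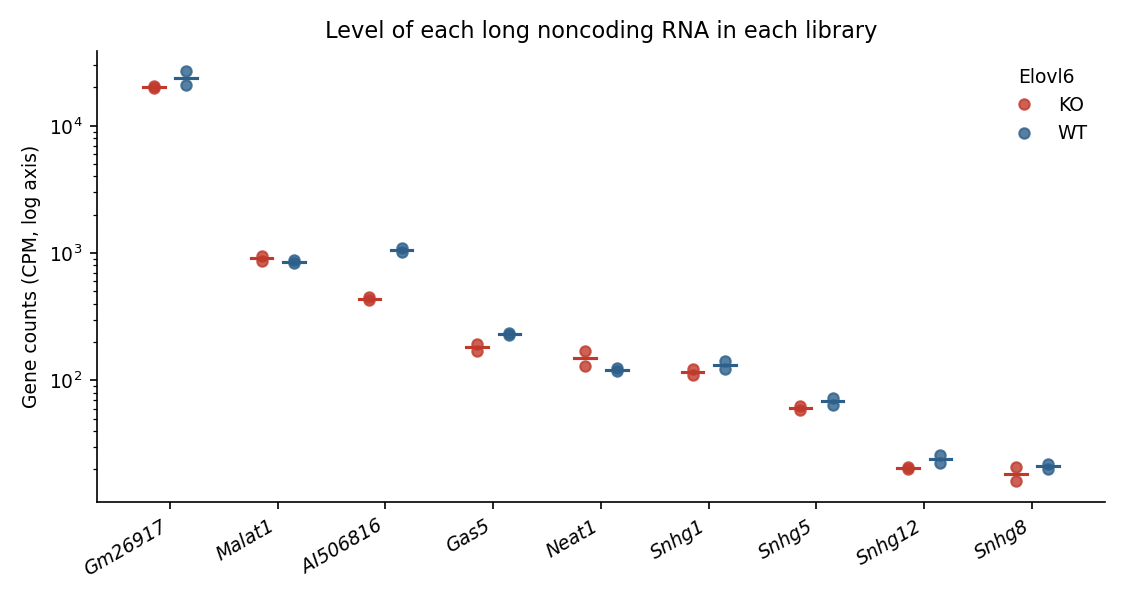
Gene counts in CPM (log axis) of each transcript, with 1 point per library (KO red, WT blue; 2 libraries each) and a bar at the group mean. AI506816 lies at 424 to 451 CPM in KO, against 1021 to 1087 CPM in WT, the widest gap among the 9.

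The comparison of KO with WT asks how these transcripts follow loss of Elovl6. AI506816 fell in KO and was the only one of the 9 past an adjusted p of 0.05 in gene counts, a call that 2.8% of the 11738 genes tested received (0.98% as lower and 1.82% as higher in KO). Both KO libraries lay below both WT libraries for 6 of the 9, as they did for 27% of all genes. Neat1 alone lay above in both, against 26.8% of all genes, and Malat1 and Snhg8 overlapped. Log2 fold changes were negative for 7 of the 9, against 50.7% of all genes.

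AI506816 (ENSMUSG00000105987, chr5:23698296-23712667, minus strand) is annotated as a processed transcript, and no role is given for it here. Its gene counts were 4056 and 4121 in KO, against 10676 and 12186 in WT. Scaled, that is 451 and 424 CPM in KO and 1087 and 1021 CPM in WT, and the groups were far apart. The log2 fold change was -1.27 (SE 0.063; edgeR adjusted p = 0.000568), or 2.41-fold lower in KO. Intron reads gave a second readout of the same locus, with 1455 and 1353 reads in KO and 3411 and 3914 in WT. Their log2 fold change was -1.20 (SE 0.099; edgeR adjusted p = 0.000682). The exon model of AI506816 left out a single-exon form and had 3705 bases, against 4479 over all forms in GENCODE vM21. Some annotated exon bases were thus booked as intron. Reads across exon junctions, which come from spliced RNA, were 147 and 171 in KO and 414 and 512 in WT, with a log2 fold change of -1.33 (SE 0.11; edgeR adjusted p = 1.81e-05). It was the only member called in junction reads, where 3.32% of 9122 genes were called. All 3 kinds of read were lower in both KO libraries, with values of -1.20 to -1.33 on the log2 scale. They come from the same libraries and are not independent measures. The test of the exon change against the intron change gave -0.066 (SE 0.068; edgeR adjusted p = 0.767). The call held in gene counts and in intron reads with each library left out, at log2 fold changes of -1.22 to -1.32 and -1.07 to -1.35. In the authors' deposited table the signed fold was -2.43 with a p of 0.0741 and a corrected p of 1, so their own test did not call it. From 87.1% to 88.4% of its exon reads were uniquely placed. The genes on either side, Srpk2 and Pus7, had log2 fold changes of 0.11 and -0.086, and neither was called.

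Malat1 (ENSMUSG00000092341) overlapped between genotypes. It had 868 and 954 CPM in KO and 829 and 882 CPM in WT. KO replicate 1 lay between both WT libraries, and the log2 fold change was 0.09 (SE 0.067; edgeR adjusted p = 0.496), and 0.021 to 0.16 with a library left out. Most of its reads, 78.4% and 78.7% in KO and 77.5% and 77.9% in WT, were booked as intron, as its exon model covers 26.3% of the locus. These intron reads came to 4185 and 4512 CPM of intron reads in KO and 3839 and 4155 CPM in WT, with KO just above WT. Their log2 fold change was 0.12 (SE 0.078; edgeR adjusted p = 0.444). Junction reads were 8 and 15 in KO and 5 and 9 in WT, so few of its reads crossed a splice junction. The 3′ ends of Malat1 and of long Neat1 are cut by RNase P, whose RNA, Rpph1, is a single-exon gene with 0 gene counts in this table. As intron reads Rpph1 stood at 7818 and 7811 CPM in KO and 11520 and 11245 CPM in WT and fell by 0.54 on the log2 scale (SE 0.069; edgeR adjusted p = 0.00531). Rpph1 shares 284 bases with Ccnb1ip1 on the same strand, so these reads cannot be assigned to Rpph1 alone. Rmrp and Rn7sk, other abundant RNAs of the same kind, had values of -0.096 and -0.15 and were not called.

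Neat1 (ENSMUSG00000092274) was higher in KO in its intron reads. These are a single total, without positions, over bases that lie mostly in the long form alone. They were 973 and 1416 in KO and 779 and 980 in WT. Scaled to the intron reads of each library that is 144 and 186 CPM in KO, against 107 and 109.9 CPM in WT. Both KO libraries lay above both WT libraries, with KO replicate 2 the highest. The log2 fold change of 0.61 (SE 0.12; edgeR adjusted p = 0.0262) was past the threshold, as for 2.59% of the 12359 genes tested in intron reads as higher in KO. AI506816 and Neat1 were the members called there, against 4.81% of genes in either direction and 2.23% as lower. The 5′ region gave less: 1170 and 1654 gene counts in KO and 1161 and 1486 in WT, or 130.1 and 170.3 CPM in KO and 118 and 125 CPM in WT. The log2 fold change there was 0.31 (SE 0.12; edgeR adjusted p = 0.206). It was 0.10 without KO replicate 2 and 0.49, past the threshold, without KO replicate 1 (edgeR adjusted p = 0.00173).

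The intron share of all Neat1 reads was 45.4% (95% Wilson interval 43.3% to 47.5%) and 46.1% (44.4% to 47.9%) in KO, against 40.2% (38.0% to 42.4%) and 39.7% (37.8% to 41.7%) in WT. These intervals cover counting error only. Per kilobase, the 5′ exon bases held 7.11 and 6.91 times the reads of the downstream bases in KO, and 8.81 and 8.97 times in WT. The values of the genotypes were separate in both measures, which are computed from the same exon and intron reads and so are not independent. Tested directly, the exon change minus the intron change was -0.31 on the log2 scale (SE 0.079; edgeR adjusted p = 0.0162). Neat1 was the only one of the 9 called in that test, which called 1.86% of 10333 genes (0.61% in this direction, 1.25% in the other). The call was lost with DESeq2 (adjusted p = 1.00) and with any library left out, at values of -0.29 to -0.31. The call on intron reads was lost without WT replicate 1 or WT replicate 2 (edgeR adjusted p = 0.107 and 0.0666). Frmd8, the protein-coding gene beyond the 5′ end of Neat1, had a log2 fold change of 0.069 in gene counts and was not called.

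**Figure D2:**
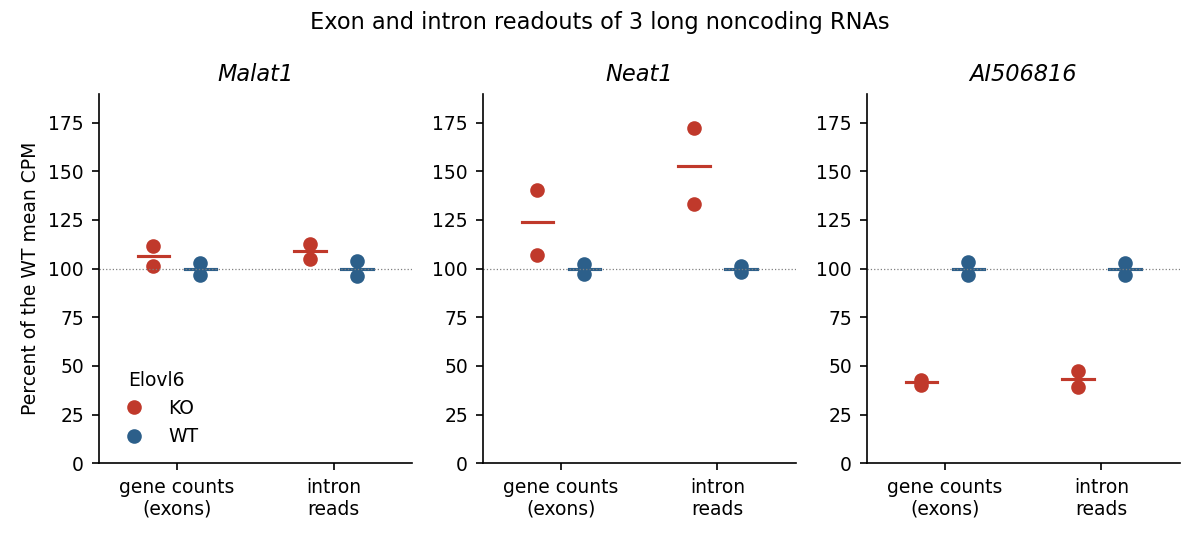
CPM of gene counts and of intron reads for Malat1, Neat1 and AI506816 in each library, as a percent of the WT mean of that readout (KO red, WT blue; 2 libraries each; bars are group means). Both readouts of AI506816 lie far below WT in KO, intron reads of Neat1 lie above WT in KO, and Malat1 lies near 100 throughout.

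Paraspeckle proteins, which bind Neat1, gave no call in edgeR among 21 genes tested. Their median log2 fold change was -0.092, against -0.0037 over all genes, and 17 were negative. Unadjusted p was under 0.05 for 4 of them, against 20.8% of all genes tested, among them Tardbp at -0.18 and Sfpq at -0.13. Nuclear speckle and SR proteins gave none among 25, with a median of -0.024, 4 with an unadjusted p under 0.05, and Clk4, a kinase of SR proteins, lowest in p at -0.35 (SE 0.080; edgeR adjusted p = 0.0697). In intron reads Clk4 was called, at -0.43 (SE 0.087; edgeR adjusted p = 0.0317). DESeq2 on gene counts called none in either list.

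Gas5 (ENSMUSG00000053332) carries snoRNAs at 9 places, the most among the hosts here, and its spliced RNA is known as a growth-arrest transcript that accumulates when translation is blocked. It had 1728 and 1666 counts in KO and 2308 and 2706 in WT. Scaled, that is 192 and 172 CPM in KO, against 235 and 227 CPM in WT. Both KO libraries were below both WT libraries, and the log2 fold change was -0.34 (SE 0.070; edgeR adjusted p = 0.0523), which missed the threshold. It passed with DESeq2 (adjusted p = 0.015) and with upper quartile scaling (edgeR adjusted p = 0.046). It missed the threshold with RLE scaling (edgeR adjusted p = 0.0539) and with limma-voom (adjusted p = 0.0615). So it did with total exon reads (edgeR adjusted p = 0.0624) and a mean of at least 10 CPM (edgeR adjusted p = 0.0682). The authors' deposited table gives a signed fold of -1.28 with a corrected p of 0.0287, past a bar that 1.71% of all features passed. Leaving out KO replicate 2 gave -0.26 and leaving out KO replicate 1 gave -0.43, past the threshold (edgeR adjusted p = 0.00347). Junction reads were 660 and 701 in KO and 851 and 1103 in WT, or 73.4 and 72.2 CPM of gene counts in KO and 86.7 and 92.4 CPM in WT. Their log2 fold change was -0.31 (SE 0.081; edgeR adjusted p = 0.0546). Zbtb37 overlaps the first 428 bases of the Gas5 locus on the opposite strand and had a log2 fold change of -0.12.

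The other 4 hosts had smaller negative values, and none was called. Snhg1 (ENSMUSG00000108414), with snoRNAs at 8 places, had 123 and 111 CPM in KO and 141 and 124 CPM in WT (log2 fold change -0.18, SE 0.084). Snhg5 (ENSMUSG00000097195) had 62.9 and 58.2 CPM in KO and 73.2 and 64.2 CPM in WT (-0.18, SE 0.094). Snhg12 (ENSMUSG00000086290), with snoRNAs at 4 places, had 20.1 and 20.7 CPM in KO and 26.0 and 22.5 CPM in WT (-0.25, SE 0.12). These 3 lay lower in both KO libraries, by gaps narrower than the spread between the WT libraries. Snhg8 (ENSMUSG00000104960) had 20.7 and 16.1 CPM in KO and 20.3 and 22.2 CPM in WT, and the groups overlapped (-0.21, SE 0.15). Their edgeR adjusted p was 0.291 for Snhg1, 0.332 for Snhg5, 0.307 for Snhg12 and 0.474 for Snhg8. With a library left out the values ran from -0.085 to -0.28 for Snhg1, from -0.088 to -0.28 for Snhg5, from -0.15 to -0.35 for Snhg12 and from -0.039 to -0.41 for Snhg8. The values nearest 0 came without WT replicate 1, or for Snhg8 without KO replicate 2, and none passed.

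Junction reads separate the hosts further, since they count spliced host RNA and leave out retained introns and snoRNA bases. Only Gas5 and Snhg1 were below WT in both KO libraries there, 2 of 5, against 22.2% of 9122 genes. Values were negative for 3 of the 5, against 51.2% of genes. Snhg1 had 333 and 305 junction reads in KO and 479 and 483 in WT (log2 fold change -0.39, SE 0.11; edgeR adjusted p = 0.0881). Snhg5 had 153 and 155 in KO and 162 and 181 in WT, a value of 0.054 (SE 0.13) after scaling. Snhg12 had 30 and 35 in KO and 31 and 28 in WT, a value of 0.34 (SE 0.29). These 2 values are positive where gene counts gave negative ones, and neither readout was called for Snhg5 or Snhg12. Summed over the 5 hosts, gene counts came to 419 and 377 CPM in KO and 496 and 459.6 CPM in WT. The summed junction reads came to 139.99 and 131 CPM in KO and 165 and 159 CPM in WT. Intron reads of the hosts were few. Snhg1 has no intron base in the table, and the 22 to 25 reads booked there are not read as a measure of it. The other 4 had 51 to 174 per gene and library, and none was below WT in both KO libraries, against 25.4% of genes. Their log2 fold changes in intron reads were -0.30 for Gas5, 0.07 for Snhg5, -0.089 for Snhg8 and -0.14 for Snhg12, with standard errors of 0.15 to 0.24. They were negative for 3 of the 4, against 48.9% of genes.

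**Figure D3:**
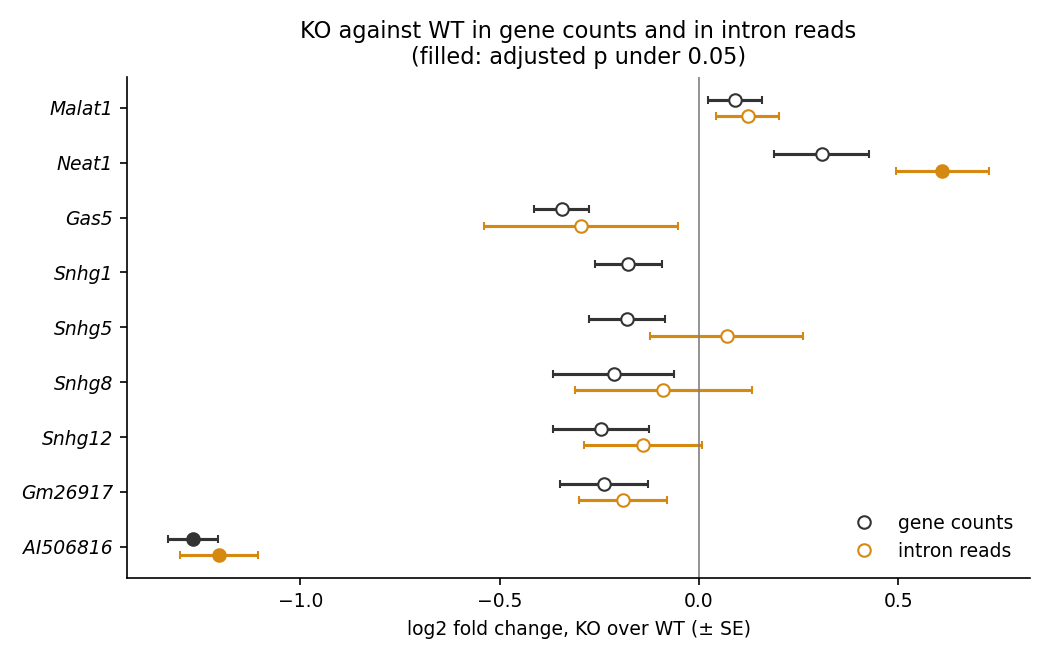
Log2 fold change of KO over WT with its standard error, from edgeR fits of gene counts (grey) and intron reads (orange) over 4 libraries; filled points passed an adjusted p of 0.05. Snhg1 has no intron bases and no intron point. AI506816 is filled in both readouts at -1.27 and -1.20, and Neat1 in intron reads at 0.61.

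Slc3a2, whose start lies 106 bases before the Snhg1 locus on the opposite strand, had 238 and 240.1 CPM in KO and 245 and 237 CPM in WT. That log2 fold change of -0.01 (SE 0.055) is set beside -0.18 for Snhg1. Wdr74, on the other side of Snhg1, had -0.20 (SE 0.14). Trnau1ap, 739 bases from Snhg12, and Taf12 on its other side had values of -0.17 and -0.24, close to that of Snhg12, and Syncrip, beside Snhg5, had -0.17. None was called.

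Genes that share a role with the hosts gave no call in edgeR in any of 4 lists, and most had small negative values. Over all genes tested, 50.7% were negative, 27% lay below WT in both KO libraries and 20.8% had an unadjusted p under 0.05. The 5 hosts had a median log2 fold change of -0.21, and 11 other noncoding hosts had -0.13, with 10 negative and 7 below WT in both KO libraries. Snhg11 was the lowest of them in p at -1.03 (SE 0.22; edgeR adjusted p = 0.0618), and Zfas1 stood at -0.24. That median was -0.34 without KO replicate 1 and -0.25 without WT replicate 2. Among 40 protein-coding hosts the median was -0.088, with 35 negative and 27 below. Ncl, the gene of nucleolin, had -0.22 (SE 0.056) and Gnl3, that of nucleostemin, -0.20 (SE 0.055). Rps2 had -0.30 (SE 0.060; edgeR adjusted p = 0.0523), but only 55.9% of its exon reads were uniquely placed. Proteins that form and assemble snoRNPs, 19 genes of which the coding host list shares some, had a median of -0.10 with 17 negative and 13 below, and Gar1 of the H/ACA particle had -0.31. Factors of nonsense-mediated decay and the exon junction complex, 24 genes, had a median of -0.07 with 16 negative and 13 below, and Rnps1 had -0.26 with 65.1% of its exon reads uniquely placed. Unadjusted p was under 0.05 for 3 of the other noncoding hosts, 12 of the coding hosts, 5 of the snoRNP genes and 5 of the decay genes. DESeq2 called 2 of the coding hosts and none of the other 3 lists. Whether the lists differ from other genes was not tested.

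**Figure D4:**
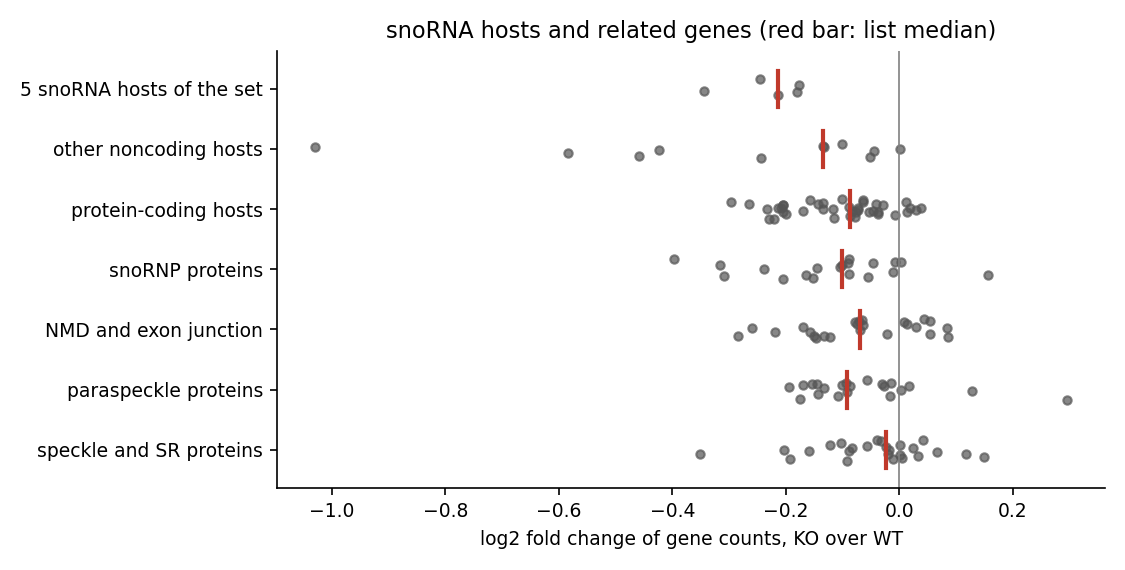
Log2 fold change of gene counts, KO over WT, for each tested gene (grey point; vertical scatter within a row carries no value) of 7 lists, with the list median as a red bar. The 5 hosts have the lowest median at -0.21, and points of every list lie within 0.4 of 0 except for some of the other noncoding hosts.

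Gm26917 (ENSMUSG00000097971, chr17:39843013-39846341, plus strand) is a predicted gene that took more gene counts than any other feature. It was also listed here among rRNA-like features, and how much of its signal is ribosomal RNA was not tested. It lies 12 bases from CT010467.1, a feature annotated as ribosomal RNA. It took 2.07% and 1.98% of gene counts in KO, against 2.66% and 2.09% in WT. Its share of intron reads was 12.4% and 11.1% in KO and 13.8% and 11.9% in WT. In CPM of gene counts it had 20714 and 19791 in KO and 26821 and 20946 in WT. Both KO libraries were below both WT libraries, but WT replicate 2 lay closer to KO than to WT replicate 1. The log2 fold change was -0.24 (SE 0.11; edgeR adjusted p = 0.278), but -0.052 without WT replicate 1 and -0.41 without WT replicate 2. CT010467.1 had 337 and 182 CPM in KO and 366 and 325 CPM in WT, with a value of -0.41 (SE 0.25), but only 2.35% of its exon reads were uniquely placed. Its intron reads had a value of 0.52 (SE 0.33), with 1117 and 2724 CPM in KO and 1387 and 1294 CPM in WT. From 80.0% to 81.6% of the reads of Gm26917 were booked as intron. Its exon model covers 869 of 3329 bases, and a single-exon form in GENCODE vM21 covers the rest. These intron reads therefore need not come from unspliced RNA. Taking Gm26917 out of the library sizes left the calls on AI506816 in gene counts and on AI506816 and Neat1 in intron reads in place. It brought Gas5 past the threshold (edgeR adjusted p = 0.0482).

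Among other named long noncoding RNAs, 16 genes were tested in gene counts. Those called were 1700020I14Rik, the mouse Cyrano transcript, which fell (log2 fold change -0.38, SE 0.056; edgeR adjusted p = 0.0252), and Mirt1, which rose (0.63, SE 0.11; edgeR adjusted p = 0.0441). The median of the 16 was -0.013, and of all genes tested 2.8% were called. The first had 179 and 175 CPM in KO and 235 and 226 CPM in WT, and the second 30.1 and 34.0 CPM in KO and 19.8 and 21.5 CPM in WT. No gene of this list was called without WT replicate 1 or without WT replicate 2. Of this list 18 genes were tested in intron reads, where 4.81% of all genes were called. Mir99ahg and Mirt1 rose there (2.85, SE 0.24, and 0.64, SE 0.12; edgeR adjusted p = 0.000759 and 0.0201). Airn fell (-0.94, SE 0.21; edgeR adjusted p = 0.0465). Mir99ahg had 13.3 and 15.1 CPM of intron reads in KO and 1.64 and 2.24 CPM in WT.

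Over the 4 libraries, the genes with a mean of at least 10 CPM whose centred log2 CPM lay nearest to that of a member, by Euclidean distance among 8564 genes, included the following. Fes and Sos1 lay near Malat1, Calcoco1, Tnfrsf1b and Slc29a3 near Neat1, and Dnajc2, Aasdhppt and Crebzf near Gas5. Distances were 0.0064 to 0.023 on the log2 scale. With 4 libraries many genes lie this close.

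Markers of other cell types moved with genotype too. Of 12 monocyte and macrophage genes tested Cybb, Lyz2 and Lgals3 rose, and the list median was 0.91. The summed level of its 13 measured genes, none of them at 0 throughout, was 2199 and 2867 CPM in KO, against 1463 and 1517 CPM in WT, highest in KO replicate 2, as was Neat1. Eosinophil genes summed to 54.1 and 19.7 CPM in KO and 409.9 and 95.5 CPM in WT, with 1 of 9 at 0 throughout. None of them was called in gene counts, 5 had an unadjusted p under 0.05, and Epx was called lower in intron reads (-2.69; edgeR adjusted p = 0.0454). Epx had 0.89 and 0.39 CPM of intron reads in KO, against 5.89 and 2.58 CPM in WT. It passed the count filter through WT alone, so this call is not read as support and its size is uncertain. Progenitor and leukaemia genes summed to 9766 and 7435 CPM in KO and 10841 and 11101 CPM in WT, with none of 14 called in gene counts and Meis1 lower in intron reads (-0.41; edgeR adjusted p = 0.0354). Late neutrophil genes, none of them called, summed to 2343 and 933 CPM in KO and 974 and 1474 CPM in WT, which sets KO replicate 1 apart. Of 11 erythroid genes 2 were tested: Car2 fell (-1.85; edgeR adjusted p = 0.0268) and Gata1 was not called (-3.29; edgeR adjusted p = 0.0548). Gata1 had 0.22 and 0.10 CPM in KO, below the level of 3 counts, and 2.14 and 1.26 CPM in WT. It too passed the filter through WT alone. Of 9 T and NK cell genes 2 were tested. Thy1 rose (1.41; edgeR adjusted p = 0.0478) and Nkg7 was not called (0.021; edgeR adjusted p = 0.955). Cd3e, Cd8a and Ncr1 had 0 counts throughout. The part of these differences in the values of Neat1, AI506816 and the hosts was not tested. In bulk RNA, fewer cells of a type and less RNA per cell cannot be told apart.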

How the data were processed

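RNA was extracted with Trizol and made into strand-keeping libraries from total RNA, per the labels' protocols. The build was mm10, per the submitters' processing notes, but no source used here names an aligner or counter or says whether counting used strand. Reads of genes that overlap on opposite strands may therefore be mixed. The deposited values are whole-number counts per feature: main gene counts, uniquely placed and total exon reads, and intron and junction reads, per the file headers. An EDGE test by the authors comes with a signed fold (ratio of KO to WT), a p-value and a corrected one, per the file headers. Of 60 columns of per-sample values, 36 were not used here.

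The 9 members, the gene lists, the tests and the rule for named genes (the members, up to 4 genes per list with the smallest p, the 3 nearest in pattern, and neighbours) were chosen with earlier results of these data known. Rpph1, Mir99ahg and genes called in intron reads were named after their values were seen, and some genes that the rule covers are not reported here. KO and WT counts were compared by edgeR 4.0.16 in R 4.3.3, with its quasi-likelihood test, after filterByExpr (minimum count 10, minimum total 15) and TMM scaling, 2 KO against 2 WT, with Benjamini-Hochberg adjustment over all genes tested. Intron reads were fitted with their own library sizes. The exon against intron test is the interaction of region with genotype, with library as a block. Standard errors are the log2 fold change over the root of the F statistic. CPM uses TMM-scaled library sizes, and TPM was computed from gene counts and exon lengths. Replicates differed beyond sampling noise (chi-square per degree of freedom 6.54 in KO, 4.42 in WT). Counting error is 10% at 100 counts, and 3 counts equal 0.251 to 0.334 CPM. Alternatives used DESeq2 1.42.0, limma 3.58.1 (voom), other scalings, filters and columns, a block and each library left out. Junction reads, exon plus intron reads, Gm26917 left out of library sizes and features of exon length 0 left out were chosen after seeing the data. The fits were tested on simulated data, in which the share of false calls lay above the nominal rate. Python 3.11.15 and pandas 2.3.3 served for tables.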

Additional observations from a re-analysis of the deposited data

How the results depend on the processing

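Of 313 values of members under the alternatives, 300 kept their direction. AI506816 was called in gene counts and in intron reads under every alternative run. In gene counts 329 genes and 1 member were called. Genes called numbered 1677 with no filter on low counts (4 members: AI506816, Gas5, Neat1 and Gm26917), 112 with a mean of at least 10 CPM, 503 with exon plus intron reads and 14 to 1449 with a library left out (1 to 3 members, with Gas5 and Neat1 added without KO replicate 1). The second member under upper quartile scaling, DESeq2, uniquely placed exon reads and Gm26917 out of the library sizes, 2 in each, was Gas5. In intron reads 1565 genes were called with no filter, Gm26917 among them (edgeR adjusted p = 5.83e-08), and 287 to 1299 with a library left out, where members numbered 1 or 2. The exon against intron test called 119 genes with no filter and 26 with DESeq2 (0 members), and 49 to 216 with a library left out (0 members, or 1 without WT replicate 2, Gm26917 at -0.086). Over the lists of related genes 2 were called, 5 with DESeq2, 1 with a mean of at least 10 CPM, 4 with uniquely placed exon reads and 0 to 17 with a library left out.

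With the replicate number as a block, 875 genes and 2 members were called in gene counts, 1430 genes in intron reads, with Gm26917 added at -0.19 (edgeR adjusted p = 0.0228), and 9 in the lists. Deviations of same-numbered samples correlated at 0.11 and no label pairs them, so the numbers were not taken as pairs.

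Junction reads turned the sign of Snhg5 (0.054) and Snhg12 (0.34). Leaving out libraries turned that of Gas5 (-0.56 to 0.042), Snhg5 (-0.0033 to 0.15) and Snhg8 (-0.34 to 0.14) in intron reads. In the exon against intron test it turned that of Gas5 (-0.43 to 0.23), Snhg8 (-0.36 to 0.11), Snhg12 (-0.32 to 0.11), Gm26917 (-0.0997 to 0.011) and AI506816 (-0.156 to 0.029). No value of turned sign passed the threshold, and the cause was not tested. With a library left out, the spread of the remaining sample is taken from the other genotype. Intron values of Gas5, Snhg5, Snhg8 and Snhg12, and junction values of Snhg12, rest on few reads.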
